A study of Oryza sativa with 12 samples.

Results

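The transcripts described here are 150 probe sets of a rice leaf array series that read high on 9 of 12 arrays and low on the other 3. The low arrays were replicates 1 and 2 of the osnox2 control group and replicate 1 of the WT control group. The members were chosen by their values. A probe set had to lie above its array's median on at least 3 arrays, and the gap was its lowest value on the 9 arrays minus its highest value on the 3. After the clock and flowering genes PCL1, PRR1, GI and Hd1, the NADPH oxidase gene RBOHB and genes named 4CL or HSF had been left out, the 150 largest gaps were taken from 32012 probe sets that passed the filter. All 150 passed that filter by construction, and every gap below is a description of the choice, with no test.

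The arrays measured RNA from the youngest fully expanded leaf of rice plants aged 2.5 months, with 3 arrays in each of 4 groups. The groups were osnox2 drought, osnox2 control, WT drought and WT control. WT was the japonica cultivar Dongjin, and osnox2 was a T-DNA insertion mutant. Drought leaves were taken on day 15 of the treatment at a soil moisture of 8.5 ± 2.1%, and control leaves on day 0 at 47.3 ± 1.9%. Plants were 10 weeks old at treatment. Drought and the 15 days of growth between the harvests cannot be told apart. Mutant and WT plants shared pots of 4 seedlings in a greenhouse with 16 h of light at 36 °C and 8 h of dark at 28 °C. The labels used here call the replicates biological, do not say how many independent insertion lines or pooled leaves stand behind them, and give no hour of harvest. The title of the series names OsRbohA, an NADPH oxidase, which makes superoxide at the plasma membrane, while the labels do not say which gene the insertion in osnox2 disrupts. The annotation used here names no probe set OsRbohA, so the mutant label was not checked on it. The number of arrays, not a read depth, limits the precision. Values are log2 MAS5 signals, so a difference of 1 is a doubling, and levels are compared only within a probe set.

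The plant circadian clock is a loop of transcription factors that repress one another at different hours. LHY, a MYB factor, peaks around dawn and represses genes of the evening, among them PRR1 (the rice TOC1) and PCL1 (the rice LUX), whose products in turn repress genes of the morning. In leaves the clock times photosynthesis, the use of starch and sugars, the opening of stomata and the response to lack of water, so many leaf transcripts cycle over the day.

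The label of an evening-like clock is described here by the 7 measured clock genes, which are no members. The rule left out PCL1, PRR1 and GI by name, and the members were chosen with earlier results of these data known. The values of the clock genes therefore describe the label and are no test of it. Of the 7 clock genes 3 had a gap above 0, 3 read lower on all 9 arrays and 1 overlapped. LHY, also named CCA1, read between 7.31 and 8.99 on the 9 arrays (median 8.43), against 13.51, 13.57 and 13.79 on the 3. PCL1 ran the other way, at 14.33 to 14.99 (median 14.60) against 6.16, 5.59 and 6.08, and PRR1 too, at 11.92 to 12.67 against 9.13, 9.29 and 9.34. GI, a further clock gene, had a gap of 0.13 that turned to -0.05 when arrays were centred on their medians, and PRR95 overlapped. PRR73 and PRR37, clock repressors of the day, read lower on all 9 arrays. The levels of LHY, PCL1 and PRR1 fit the label, while GI does not separate the arrays under every scaling. The time of day of each harvest was not tested, since no label gives it, and drought and control leaves were taken 15 days apart.

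Of 6 leaf marker genes 5 lay above the median on all 12 arrays, while their summed linear signal was 66927 to 85213 on the 9 arrays, against 113511 to 150891 on the 3. Of the 5 that passed the filter, rcaA1 (Rubisco activase) was the 1 that read lower on all 9 arrays, at 13.11 to 13.73 on the 9, against 15.39 to 15.62 on the 3. The other 4, CAB2R, PORA, PORB and rbcS, overlapped. Summed root markers were 285 to 832 on the 9 arrays, against 579 to 912 on the 3, and endosperm and seed markers 5863 to 7415, against 6285 to 7373. Of 5 anther and pollen genes 4 lay above the median on no array and 1 on all 12. This list summed to 21956 to 25932 on the 9 arrays, against 23476 to 26692 on the 3. Meristem and inflorescence markers summed to 1052 to 1834 on the 9 arrays, against 1310 to 1888 on the 3. The part of these shifts in the members' levels was not tested. In whole leaves, fewer cells of a type and less RNA per cell cannot be told apart.

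The gap of the 150 members ran from 2.08 to 10.35, with a median of 2.66, which is 6.31-fold. It was over 4 for 25 members, 3 to 4 for 25 and under 3 for 100. The mean of the 9 arrays minus the mean of the 3 had a median of 3.79 (13.9-fold). Of all 32012 probe sets that passed the filter, 15.1% had a gap above 0, and 9.44% read lower on all 9 arrays than on any of the 3. The share with a gap above 0 was used by the rule and says nothing further about the members. The median member signal lay between 9.71 and 10.61 on each of the 9 arrays, and at 6.13, 5.96 and 5.87 on osnox2 control 1, osnox2 control 2 and WT control 1. The medians of all probe sets that passed the filter moved far less, at 8.24 to 8.37 on the 9 arrays, against 8.07 to 8.12 on the 3. On the 9 arrays 141 members were always above the array's median. On the 3 arrays 78 members were always above it, 20 were above it on some, and 52 were always below it. For 43 members the signal was above the median on every one of the 9 arrays and below it on every one of the 3.

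**Figure D1:**
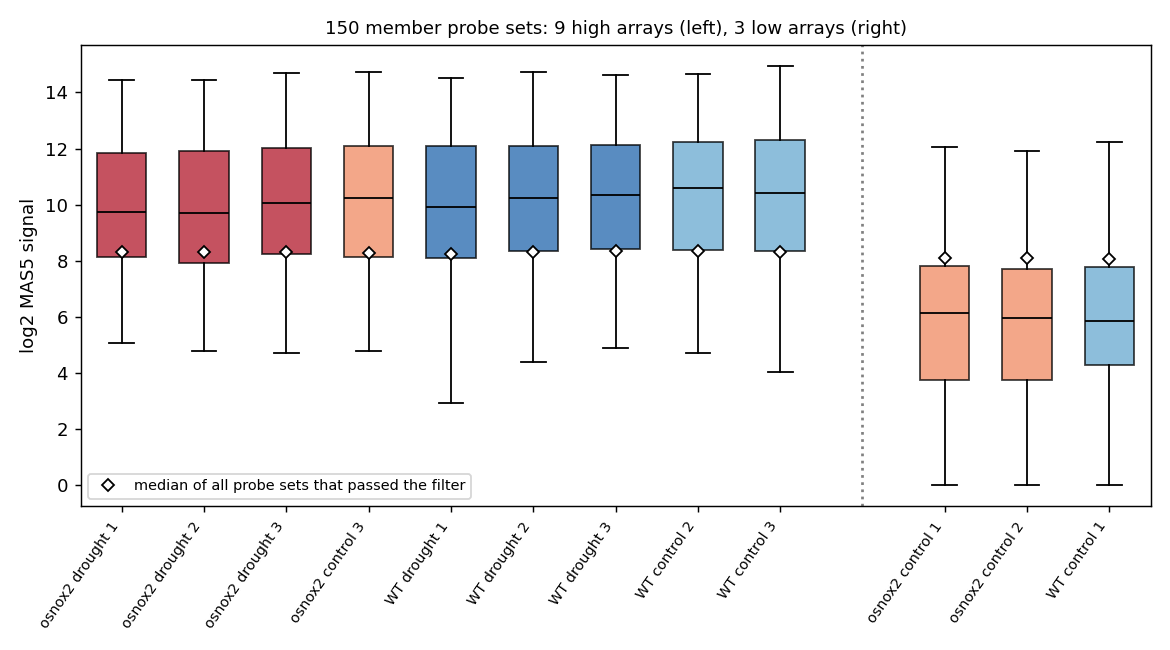
Log2 MAS5 signal of the 150 members on each array. Boxes span the quartiles with the median as a line, whiskers reach the lowest and highest member, and diamonds give the median of all 32012 probe sets that passed the filter. Member medians lie at 9.71 to 10.61 on the 9 arrays left of the dotted line and at 5.87 to 6.13 on the 3 arrays right of it.

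Among the 9 arrays the members varied about as much as other probe sets. The range of a member over the 9 had a median of 0.99, against 1.02 for all probe sets that passed the filter, and over the 3 arrays a median of 0.86, against 0.54. The rule used the lowest of the 9 values, so the first of these is not independent of it. Among the members 105 probe sets matched 1 gene, 1 matched several and 44 matched none, and the 105 stood for 95 genes. Of these genes 86 had 1 member probe set, 8 had 2 and LOC4341032 had 3. Only 9 genes have a name in the annotation. The others are given by locus identifier, with no role, and probe sets matched to no gene by their rank in the order of gaps.

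Members in osmotic stress signalling were the kinase genes SAPK9 and SAPK7. SAPK proteins are the rice SnRK2 kinases, which are activated by osmotic stress, and SAPK9 is also activated by the drought hormone abscisic acid. SAPK9 (chromosome 12) read 12.71 at its lowest, 12.92 at its median and 13.39 at its highest on the 9 arrays, against 7.14, 7.2 and 6.91 on osnox2 control 1, osnox2 control 2 and WT control 1. Its gap of 5.50 was the widest of the named members, on a probe set of a kind that may cross-hybridise. SAPK7 (chromosome 4) read 9.19, 9.69 and 10.31 at its lowest, median and highest on the 9 arrays, and 6.52, 6.76 and 7.11 on the 3, a gap of 2.08 that placed it last among the 150. All 10 SAPK genes were measured, a family set beside the members after their values were seen. Besides the 2 members, SAPK10 (gap 1.27) and SAPK6 (gap 0.75) read higher on all 9 arrays. SAPK2 had a gap of 0.02, which became -0.12 with arrays centred on their medians. SAPK1, SAPK3, SAPK4, SAPK5 and SAPK8 had gaps below 0, and SAPK1 read lower on all 9 arrays, at 10.99 to 11.61 against 11.78 to 11.90.

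PYRB and PYRC encode successive enzymes of pyrimidine nucleotide synthesis. PYRB (chromosome 8), for aspartate carbamoyltransferase, read 12.49, 12.55 and 12.81 at its lowest, median and highest on the 9 arrays, against 9.03, 9.0 and 8.73 on the 3. PYRC (chromosome 1), for dihydroorotase, read 8.61, 8.83 and 9.0 on the 9 arrays, against 6.26, 5.75 and 5.37. Both were flat across the 9 arrays and apart from the 3. The member probe set of PYRC is of a kind that may cross-hybridise. A further PYRC probe set, not of that kind and no member, had a gap of 1.99. UMPS1, a gene for the enzyme that completes uridine monophosphate, read 10.77 to 11.32 on the 9 arrays, against 9.26 to 9.46 on the 3, while UMPS2 overlapped. These enzymes were looked up after the members' values were seen.

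TIP4-1 and SUS1 concern water and sugar. TIP4-1 (chromosome 5) encodes an aquaporin of the vacuole membrane. It read 13.30, 13.76 and 14.07 at its lowest, median and highest on the 9 arrays, against 10.12, 9.30 and 9.25 on the 3. Of the 9 tonoplast aquaporin probe sets that passed the filter, the 2 of TIP4-1 (gaps 3.18 and 0.27) were the ones with a gap above 0. TIP1 was opposite, at 10.49 to 12.15 on the 9 arrays, against 13.12 to 13.72 on the 3. SUS1 (chromosome 3) encodes a sucrose synthase, which splits sucrose in sink tissues. It read 7.33, 8.64 and 10.33 at its lowest, median and highest on the 9 arrays, against 4.84, 3.35 and 4.42 on the 3, so it varied more than the other named members. Its dim values matter for the gap, which was 2.49 as deposited and 1.28 with 64 added to the signal. The sucrose synthase gene SUS4 had a gap of 0.87 and SUS2 one of -0.24.

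The other named members work in protein turnover, cell division and nucleic acid cleavage. PUB73 (chromosome 2), of the U-box family of ubiquitin ligases, read 5.88, 6.64 and 6.87 at its lowest, median and highest on the 9 arrays, against 1.60, 3.55 and 2.02 on the 3. CKS1 (chromosome 3), a small subunit that binds cyclin-dependent kinases, read 10.81, 11.74 and 11.91, against 8.60, 8.63 and 8.53. BBD1 (chromosome 1), for a bifunctional nuclease, read 14.37, 14.61 and 14.91, against 11.35, 10.92 and 12.22. In each of these the gap was wider than the range within the 9 arrays and that within the 3. The rule took the largest gaps, so this too is a description of the choice. SUS1 had a gap narrower than its range over the 9 arrays.

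The widest gaps belonged to probe sets with no gene name. The probe set of rank 1 by gap, matched to no gene, read 13.21, 13.67 and 13.86 at its lowest, median and highest on the 9 arrays, against 2.00, 2.86 and 2.29 on the 3. LOC4331855 (chromosome 3) read 13.43, 13.79 and 13.97, against 0.76, 5.26 and 4.77. LOC4337388 (chromosome 4) read 13.50, 14.12 and 14.37, against 3.50, 2.93 and 5.43. These 3 went between a strong signal and values that are dim on this array, where MAS5 log2 values scatter widely. The next were LOC4343921 (gap 6.35), the unmatched probe set of rank 5 (6.29), LOC4348520 (5.85), LOC4341032 (5.66 and 5.6 on its 2 brighter probe sets, 3.57 on the other), LOC4352254 (5.44) and the unmatched probe set of rank 11 (4.90). LOC4341032 read 12.49 to 13.18 against 6.37 to 6.83 on the first of its probe sets and 13.31 to 13.82 against 6.74 to 7.71 on the next. Each of its member probe sets was chosen for this split, so their agreement follows from the rule.

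**Figure D2:**
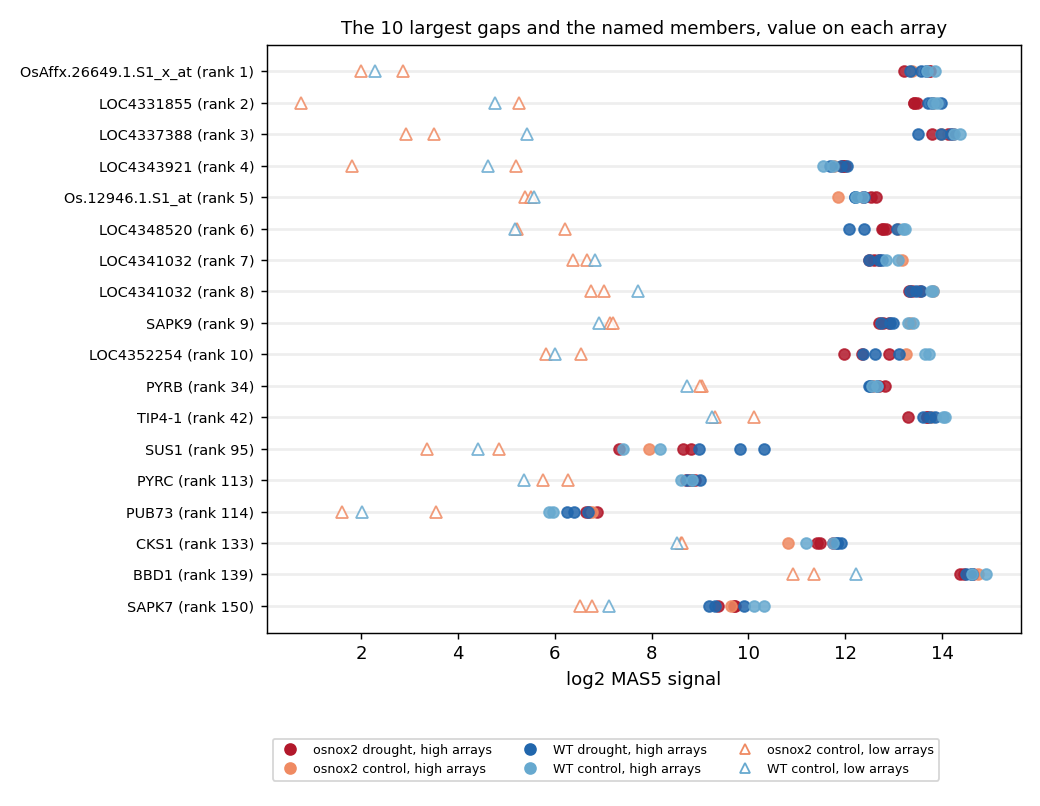
Log2 MAS5 signal of the 10 largest gaps and the other named members on each of the 12 arrays. Filled circles are the 9 arrays and open triangles the 3 arrays (osnox2 control 1 and 2, WT control 1), coloured by group. SAPK9 sits at 12.71 to 13.39 on the 9 arrays, against 6.91 to 7.2 on the 3, and SUS1 spreads most among the named genes, from 7.33 to 10.33.

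At the lower edge the members did not stand apart from probe sets just outside. The last members were LOC4352591, LOC4351903 and LOC4349221, each with a gap of 2.10, then LOC4337569 and SAPK7, each with 2.08. The first probe sets outside were LOC4351907 and LOC4325575 at 2.06, a probe set matched to no gene at 2.05, and LOC4333964 and the membrane traffic gene SCAMP6 at 2.04. LOC4325575 is a member gene through another probe set, with a gap of 3.01. Within reach of the cutoff the rule left out 5 probe sets, with gaps of 8.16 for PCL1, 4.96 for the heat stress factor gene rHsf11, 2.58 for PRR1, 2.55 for RBOHB and 2.20 for Hd1.

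**Figure D3:**
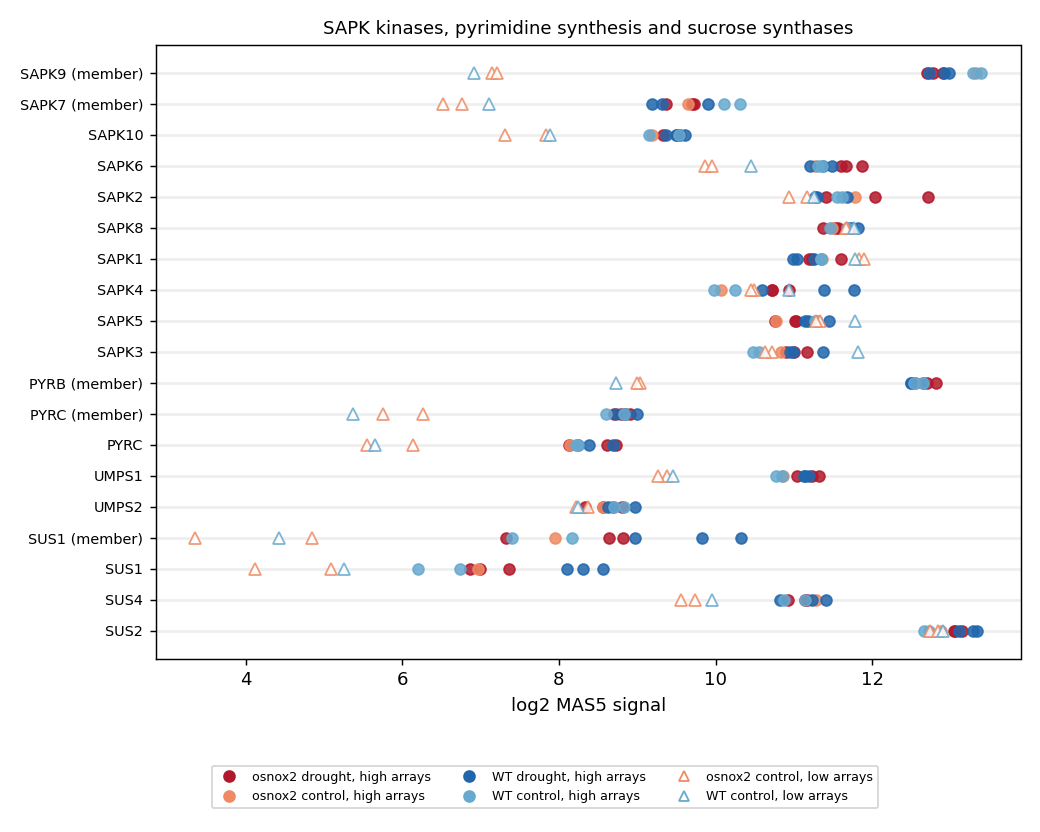
Log2 MAS5 signal on each array of the SAPK kinase genes, the pyrimidine synthesis genes and the sucrose synthase genes that passed the filter, with members marked. Filled circles are the 9 arrays and open triangles the 3 arrays. SAPK9, SAPK7, PYRB, PYRC and SUS1 are apart on the 3 arrays, UMPS1 is apart by 1.32, and the 3 arrays of SAPK8 and SUS2 lie among the 9.

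Other probe sets of member genes numbered 22, for 14 genes. The 19 that passed the filter were ranked by the same rule and fell below the cutoff. Of the 19, 16 had a gap above 0, beside 15.1% of all probe sets that passed the filter, and 3 did not, of LOC4325919 (2) and LOC4326895 (1). The position of the genes was not used by the rule. Of the 95 genes 17 lie on chromosome 3, or 17.9%, against 13.9% of all measured genes, and 14 on chromosome 1, or 14.7%, against 14.9%. Among the next protein-coding genes on either side of a member there were 103 measured genes that were no members themselves. Of these 29 (28.2%) had a gap above 0, against 20.4% of all measured genes that were no members, and 5 (4.85%) had a gap above 1, against 2.39%. Members that neighbour each other were LOC4326931 with BBD1 on chromosome 1 and LOC4347702 with LOC4347706 on chromosome 9. Probe sets whose suffix marks possible cross-hybridisation (x_at or s_at) made up 15.3% of members and 20.9% of all that passed the filter. Among these members were the probe set of rank 1 and those of LOC4337388, SAPK9 and PYRC.

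Of the 15392 measured genes 95 had a member probe set, and gene lists related to the clock are set beside that share. The rule had left out PCL1, PRR1, GI and Hd1 by name, so the clock and flowering lists could not hold them as members. Of 16 measured photoperiod flowering genes 3 had a gap above 0, namely Hd1 (2.20), Hd16 (0.22) and DTH8 (0.14). The 3 phytochrome genes PhyB, PHYA and phyC, for red light receptors, were the 3 of 7 photoreceptor and light signalling genes with a gap above 0, at 0.13, 0.08 and 0.12. Of 52 starch and sucrose genes 8 had a gap above 0, and SUS1 was the member. The list of 165 hormone genes held 32 with a gap above 0 and the members SAPK9 and SAPK7. Among 12 cold and DREB genes there were 2, and among 18 genes of chlorophyll breakdown and leaf ageing 3. These counts take the brightest probe set of each gene, and 19.9% of all 15392 measured genes had a gap above 0 when taken the same way.

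Differences within the 9 arrays were tested, since they do not hold the split that chose the members. The rule did use the lowest of the 9 values. Tests were made with limma on all 32012 probe sets, and a difference was called when its Benjamini-Hochberg adjusted p lay below 0.05. Replicate values are those of separate samples, for which the labels give no further detail of plant or pot, so p-values measure the spread between the samples fitted. The low control arrays are not among these, so the p-values leave out their distance from the other replicates of their groups. The median residual SD in the fit to the 9 arrays was 0.21 for members and 0.27 for all probe sets.

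The comparison of osnox2 with WT under drought asks which transcripts the mutation changed in dry soil, and all 6 of its arrays are among the 9. LOC4342499 (chromosome 7) read 12.98, 12.86 and 12.68 on the osnox2 drought arrays, against 12.02, 12.14 and 11.86 on the WT drought arrays. The mutant arrays were all above the WT arrays, and the difference of 0.83 ± 0.11 (SE, n = 3 each, limma adjusted p = 0.0429) was the 1 call among 150 members, against 0.25% called of all probe sets (0.181% higher and 0.0687% lower). The call was lost without any 1 of the 6 arrays, when no member was called. No member was called lower. LOC4351903 (chromosome 12) came next, at 8.4, 8.38 and 8.32 in osnox2 drought and 9.04, 9.14 and 9.13 in WT drought, with a difference of -0.73 ± 0.12 (limma adjusted p = 0.0751). LOC4346228, LOC4339960 and LOC4327931 followed, with differences of -0.50, -0.77 and -0.49 and limma adjusted p of 0.0822, 0.0970 and 0.101. At an unadjusted p under 0.05 there were 41 members (27.3%), against 10.6% of all probe sets. The difference was over 1 in size for 5.33% of members, against 8.10% of all, and the median SE was 0.17, against 0.22. The named members did not pass. SUS1, for example, read 8.64, 7.33 and 8.81 in osnox2 drought and 8.98, 9.82 and 10.33 in WT drought, a difference of -1.45 ± 0.47 (limma adjusted p = 0.332), with the mutant arrays below the WT arrays. SAPK9 differed by -0.08 ± 0.10 and PYRB by 0.14 ± 0.09 (limma adjusted p = 0.816 and 0.669).

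Drought in WT leaves was compared on 3 drought arrays and WT control replicates 2 and 3. With drought 3 members rose and 12 fell, or 10% of the members, against 2.97% called of all probe sets, of which 486 (1.52%) rose and 464 (1.45%) fell. The change was over 1 in size for 10% of members, against 11.04% of all probe sets. The median SE was 0.189 for members, against 0.247 for all, and the median size of the change 0.336, against 0.275. The larger share of calls is thus no larger share of changes over 1. LOC4324060 (chromosome 1) read 9.77, 11.55 and 12.06 on the WT drought arrays, against 8.05 and 6.22 on the WT control arrays, and rose by 3.99 ± 0.81 (limma adjusted p = 0.0407). LOC4344263 (chromosome 7) read 8.70, 8.99 and 9.92, against 7.53 and 6.81, and rose by 2.03 ± 0.40 (limma adjusted p = 0.0368). LOC4339960 (chromosome 6) rose by 0.83 ± 0.16. In these 3 every WT drought array was above both WT control arrays.

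Among the members that fell in WT, LOC4330144 (chromosome 2) changed most. It read 7.47, 8.10 and 8.89 on the WT drought arrays, against 10.11 and 10.06 on the WT control arrays, and fell by 1.93 ± 0.34 on the log2 scale (limma adjusted p = 0.0267). The unmatched probe set of rank 82 read 7.51, 7.48 and 7.47, against 8.91 and 9.09, and fell by 1.52 ± 0.21 (limma adjusted p = 0.0112). The unmatched probe set of rank 66 read 11.62, 11.19 and 11.46, against 13.00 and 12.78, and fell by 1.47 ± 0.23 (limma adjusted p = 0.0169). The drought arrays lay below both control arrays in each. LOC4340812, LOC4333329, LOC4330225, the unmatched probe set of rank 37 and LOC4334965 fell by 1.32, 1.20, 1.08, 0.97 and 0.90, with limma adjusted p between 0.0110 and 0.0465. The median change over the 150 members was -0.15, against -0.03 over all probe sets, and 96 members had a negative value. At an unadjusted p under 0.05 there were 64 members (42.7%), against 18.9% of all.

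The counts in WT depended on the scaling and on single arrays. With arrays centred on their medians, which put the median of all probe sets at 0.08, against -0.03 as deposited, 4 members rose and 4 fell, against 3 and 12 as deposited, and 528 of all probe sets rose and 218 fell. Without WT control replicate 2 or replicate 3 no member was called, without WT drought replicate 2 there was 1 call, and without osnox2 drought replicate 2, an array that enters through the shared spread, there were 8. LHY rose by 1.03 ± 0.19 in the same comparison (limma adjusted p = 0.0299) and was the 1 of 7 clock genes called. It read 8.63, 8.43 and 8.13 on the WT drought arrays, against 7.43 and 7.31 on the WT control arrays. Its part in the members' falls was not tested. PCL1 had a value of -0.35 ± 0.12 (limma adjusted p = 0.180).

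The member probe sets of the named genes did not pass in WT. SAPK9 read 12.73, 12.92 and 12.99 on the WT drought arrays, against 13.29 and 13.39 on the WT control arrays, a difference of -0.46 ± 0.10 (limma adjusted p = 0.0530). SUS1 read 8.98, 9.82 and 10.33, against 8.17 and 7.40, a difference of 1.92 ± 0.52 (limma adjusted p = 0.0893). For both genes the drought arrays lay on one side of the control arrays. A further SUS1 probe set, no member and of a kind that may cross-hybridise, did pass, at 8.10, 8.31 and 8.56 on the WT drought arrays, against 6.74 and 6.19 on the WT control arrays, a rise of 1.85 ± 0.26 (limma adjusted p = 0.0120). SAPK7 differed by -0.74 ± 0.22 (limma adjusted p = 0.114). The pyrimidine genes PYRB and PYRC differed by -0.05 ± 0.10 and 0.14 ± 0.15, values smaller than their errors.

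Drought in osnox2 leaves was compared on 3 drought arrays and osnox2 control replicate 3 alone, for which the spread of the other groups is taken. Here 1 member rose and 4 fell, or 3.33%, against 1.44% of all probe sets (1.07% that rose and 0.375% that fell). At an unadjusted p under 0.05 there were 43 members (28.7%), against 14.7% of all. LOC4342499 read 12.98, 12.86 and 12.68 on the osnox2 drought arrays, against 11.999 on the osnox2 control array, and rose by 0.84 ± 0.15 (limma adjusted p = 0.0409). The unmatched probe set of rank 66 read 10.77, 10.15 and 9.98, against 12.29, and fell by 1.99 ± 0.29 (limma adjusted p = 0.0215). LOC4340812 (chromosome 6) read 11.22, 11.37 and 11.23, against 13.02, and fell by 1.75 ± 0.32 (limma adjusted p = 0.0409). The drought arrays were all on one side of the control array in these 3. LOC4334965 and LOC4333329 fell by 1.14 and 1.09. The change was over 1 in size for 12% of members, against 14.6% of all probe sets. Calls fell to 1 without osnox2 drought replicate 1, to 0 without replicate 2, to 1 without either WT control array and to 3 without WT drought replicate 2.

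Of the 16 members called in either genotype, 4 were called in both, namely the unmatched probe set of rank 66, LOC4340812, LOC4334965 and LOC4333329. The comparisons share the estimate of the spread. All 15 members called in WT had a value of the same sign in osnox2. They include the probe sets of rank 31 and rank 33 of LOC4333329. The matching shares of all probe sets, for sign and for calls in both genotypes, were not taken, so neither count is set apart as a trait of the members. LOC4342499, called in osnox2, had a WT drought level of 12.02, 12.14 and 11.86 beside 12.08 and 12.26 in WT control.

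The other genes of the lists were followed in the same comparisons, each by its brightest probe set. Taken so, 2.08% of all measured genes rose with drought in WT and 2.09% fell, and in osnox2 1.41% rose and 0.565% fell. In WT 2 of 16 flowering genes fell with drought, DTH8 by 1.64 ± 0.28 and MADS50 by 0.64 ± 0.13, and none rose. Both bear on heading date. The drought leaves were taken 15 days later, and the part of plant age in these falls was not tested. Of 52 starch and sucrose genes 1 rose, SUS2 by 0.55 ± 0.09, not counting the further SUS1 probe set above, and 3 fell, SWEET1a by 1.14, MST3 by 0.84 and DPE2 by 0.35. The cryptochrome gene CRYD fell by 0.86 ± 0.17 among 7 light genes, and LIP1 by 0.50 among 12 cold genes. Of 165 hormone genes 3 rose and 2 fell, and of 18 genes of chlorophyll breakdown none was called. The hormone counts are no higher than the shares over all genes, and the other lists are short. In osnox2 CRYD fell by 1.39 ± 0.21 and MST3 by 1.19, SWEET6a rose by 1.82 and SS1 by 1.60, 2 hormone genes rose, and no gene of the clock, flowering, cold or chlorophyll lists was called. Between the genotypes the calls of the lists came to 1, JAZ7 of the jasmonate repressors, higher in osnox2 under drought by 0.70 ± 0.07 (limma adjusted p = 0.0171), where 0.175% of all measured genes were called higher.

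**Figure D4:**
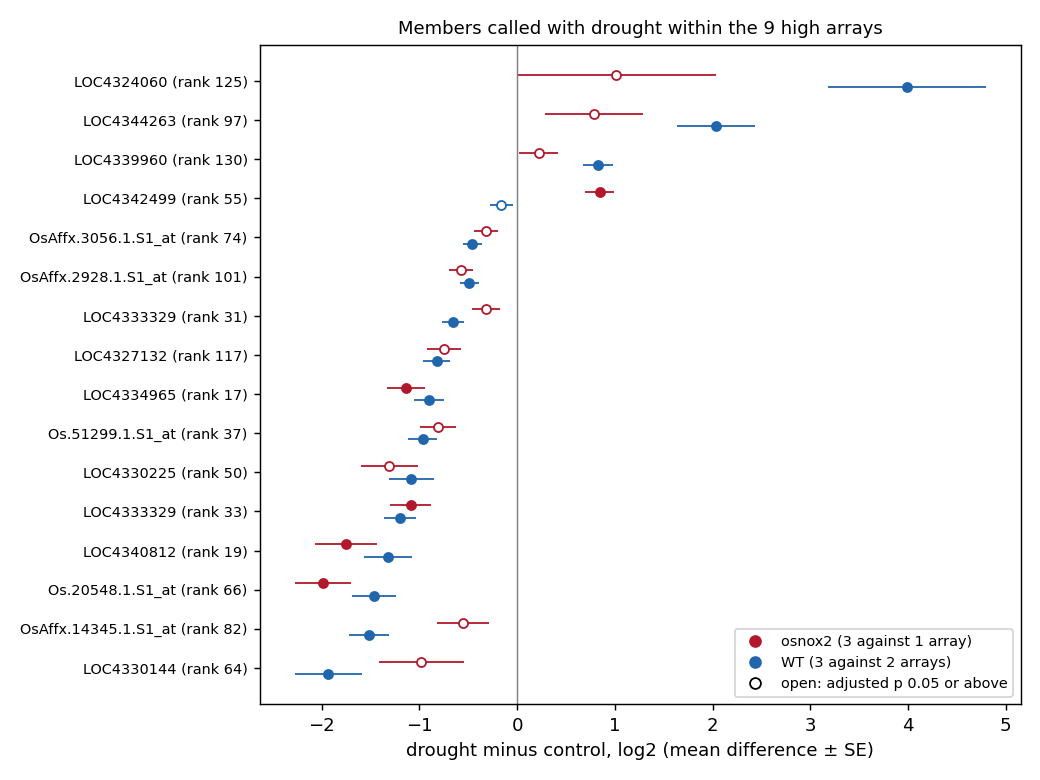
Drought minus control (log2, mean difference ± SE) of the 16 members called in either genotype, within the 9 arrays. Red points are osnox2 (3 drought arrays and 1 control array), blue points are WT (3 and 2 arrays), and open points did not pass the limma threshold. LOC4324060 has the widest rise, 3.99 in WT, and the probe set of rank 66 fell by 1.99 in osnox2 and 1.47 in WT.

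The drought responses of the genotypes were also compared directly, as the osnox2 response minus the WT response. No member passed the limma threshold, against 0.025% called of all probe sets, and 16 members (10.7%) had an unadjusted p under 0.05, against 7.31% of all. LOC4342499 came closest, with a difference of 1.0 ± 0.19 (limma adjusted p = 0.219). LOC4350330 followed with 2.29 ± 0.56 (limma adjusted p = 0.327), then the unmatched probe set of rank 5 with 0.69, LOC107275253 with -0.72 and LOC4338971 with -0.80.

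Under control conditions osnox2 replicate 3 alone was compared with WT replicates 2 and 3, with the spread taken from the other groups. The difference was over 1 in size for 6% of members, against 12.7% of all probe sets. No member passed with limma, against 0.275% called of all probe sets (0.0625% higher and 0.212% lower). At an unadjusted p under 0.05 there were 27 members (18%), against 10.4% of all. LOC4333329 (chromosome 3) read 12.29 in osnox2, against 13.26 and 13.12 in WT, on its probe set of rank 31, a difference of -0.90 ± 0.15 (limma adjusted p = 0.0654). On its probe set of rank 33 it was -0.94 ± 0.22 (limma adjusted p = 0.161). LOC4333719 differed by -0.59 ± 0.10 (limma adjusted p = 0.0705), LOC4350330 by -2.40 ± 0.46 (limma adjusted p = 0.0994) and LOC4348974 by 1.25 ± 0.34 (limma adjusted p = 0.221). LOC4350330 (chromosome 11) read 6.64 on the osnox2 control array and 9.22 and 8.86 on the WT control arrays.

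When all 12 arrays are used, the comparisons with a control group hold the split itself, so the values below are a description. The members' median drought response was then 2.45 in osnox2, with 150 of 150 values positive, and 1.21 in WT, with 149 positive. The median osnox2 minus WT difference under control was -1.37, with all 150 negative, and that between the drought responses 1.23. Without the 3 arrays the corresponding medians were -0.08, -0.15, -0.17 and 0.03. The osnox2 control group holds 2 of the low arrays and the WT control group 1, and the medians with all 12 arrays follow that number.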

How the data were processed

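The authors deposited a table of log2 expression values for 57258 probe sets on 12 arrays of rice leaf RNA, made with MAS5 (version not stated) per the submitters' processing notes. On the linear scale the trimmed means of the arrays, without the lowest and highest 2%, were 498 to 504. The values were used as deposited. The 64 reporter probe sets were left out, and 32012 of 57194 others lay above the array median on at least 3 arrays. Names come from the platform annotation and the reference annotation of assembly ASM3414082v1. The files name no genome build, so no coordinates are given.

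Group means were fitted with limma 3.58.1 in R 4.3.3 (lmFit, eBayes with an intensity trend), on 6 drought arrays for osnox2 against WT under drought and on 9 arrays for the other 4 comparisons, two-sided, with Benjamini-Hochberg adjustment and a threshold of 0.05. Tables and plots used Python 3.11.15, numpy 2.4.6, pandas 2.3.3 and matplotlib 3.10.9. On simulated data with 32012 probe sets, changes of 2 on the log2 scale were recovered in 56% (osnox2 against WT under drought), 62% (drought in WT), 55% (drought in osnox2), 37% (difference between the responses) and 38% (osnox2 against WT under control). For changes of 1 the shares were 35%, 32%, 19%, 9% and 11%. The changed probe sets were drawn from all that passed the filter. Members had a lower residual SD, so these shares are not those of the members.

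The text names every member with an annotation name, the 10 other largest gaps (LOC4341032 once), 5 probe sets on either side of the cutoff, up to 8 called members per direction and comparison, or the 5 smallest p where fewer than 3 were called, and the clock genes. The 7 pathway lists and 5 marker lists hold genes matched by name. The members and lists were chosen with earlier results of these data known. Residuals of same-numbered drought arrays correlated at 0.12, -0.07 and 0.14, and those of drought arrays with other numbers at -0.18 to 0.06. These values do not settle whether the numbers mark pairs. The main fits did not take them as pairs, and fits with the number as a block are given below. Alternatives were no filter, an offset of 64, quantile normalization, centring, no trend, other sets of arrays, a replicate block and each array left out.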

Additional observations from a re-analysis of the deposited data

How the results depend on the processing

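With the rule run again, 101 of the 150 members stayed with an offset of 64, 140 with quantile normalization, 138 with centring on array medians and 146 with no filter. Their median gap with the offset was 2.07, and all 150 gaps stayed above 0 under these 4 settings. The offset acts on dim signals, such as those of SUS1 on the 3 arrays, and the few arrays limit the tests.

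For osnox2 against WT under drought, the 1 call became 0 with no trend and with all 12 arrays, and 4 (1 higher, 3 lower) in the fit to 9 arrays. It was 0 to 0 with each array left out. For drought in WT the 15 calls became 8 with centring, 1 with no trend, 0 with all 12 arrays and 7 with only the groups compared, and 0 to 16 with each array left out. For drought in osnox2 the 5 calls became 3 with no filter, 1 with centring, 0 with no trend, 0 with all 12 arrays and 2 with only the groups compared, and 0 to 6 with each array left out. The difference between the responses had 0 calls in every setting run. For osnox2 against WT under control the 0 calls became 7 with only the groups compared, and 0 to 1 with each array left out. Calls over all probe sets ranged from 10 to 189 for osnox2 against WT under drought (80 as reported), 34 to 1400 for the WT drought response (950), 122 to 734 for the osnox2 one (462), 0 to 9 for the difference (8) and 7 to 445 for osnox2 against WT under control (88). Only the groups compared could not be run for the difference, which needs all 4, and leaving out osnox2 control replicate 3 could not be run for comparisons that use it. The cause of these changes was not tested, apart from the fewer arrays that a setting holds.

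With the replicate number as a block, the calls were 0 for osnox2 against WT under drought (LOC4342499 adjusted p = 0.0569), 16 for the WT drought response, 3 for the osnox2 one, 0 for the difference and 0 for osnox2 against WT under control. Of 39 member values named through a test, 33 kept their direction and side of the threshold with this block. SAPK9 in WT passed (-0.40, adjusted p = 0.0451), and 5 lost the call, namely LOC4342499 under drought, LOC4324060 in WT (0.0633), and LOC4342499 (0.103), LOC4340812 (0.0871) and LOC4333329 (0.0840) in osnox2. With the offset 38 kept direction and side and 1 lost the call. Of 16 values of genes that are no members, run after the data were seen, 6 lost the call with the block (JAZ7, LHY, MST3 in both genotypes, DPE2 and SS1) and 2 with the offset (DPE2, and MST3 in osnox2).

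With all 12 arrays, which include the 3 low ones by construction, 17 member values turned. In WT drought LOC4330144 became 0.10, the probe set of rank 66 0.48, LOC4340812 1.06, LOC4333329 1.08, LOC4330225 0.39, the probe set of rank 37 0.75, LOC4334965 1.10, SAPK9 1.68, SAPK7 0.29 and PYRB 1.24. In osnox2 drought the probe set of rank 66 became 1.58, LOC4340812 2.31, LOC4334965 2.73 and LOC4333329 2.42. In the difference LOC107275253 became 0.24 and LOC4338971 0.63, and under control LOC4348974 became -0.046. Of the other member values, 16 kept direction and side and 6 lost the call. Of the genes that are no members, LHY became -1.11, PCL1 2.57 and DPE2 0.056 in WT, 12 lost the call and 1 kept it.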

Other observations

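Genes of the lists that were no members, and had a gap above 1 on the split that chose the members, are given as values. SWEET4, of the SWEET family of sugar transporters, read 12.66 to 13.36 on the 9 arrays, against 10.88 to 11.29 on the 3. NYC1, a chlorophyll b reductase that starts the breakdown of chlorophyll b, read 13.04 to 13.67 on the 9 arrays, against 11.53 to 11.76 on the 3. IAA12, of the Aux/IAA repressors of auxin signalling, read 6.27 to 8.36 on the 9 arrays and at most 4.52 on the 3. These genes were chosen after their values were seen.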
